A study of Mus musculus with 8 samples.

Results

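The IL-10 response of wild-type peritoneal macrophages was read from 1 comparison, the signal of each gene in IL-10-treated cells against its signal in mock-treated cells. The cells were thioglycolate-elicited peritoneal macrophages of C57BL/6 mice, drawn into the cavity by an injected irritant and then kept on plastic for 24 h. Of 11996 listed genes, the 11400 with a mean over the 4 group columns of at least 26.7 units of normalized signal were compared. That limit is 1 ppm of a column's total, and the same 26.7 units were added to both values before each log2 ratio was taken, so the ratios of low genes are understated. Ptprk and Spata24, with means of 26.75 units, were the last genes kept, and Pkp2 and Samd5, with means of 26.63 units, were just left out.

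The labels give 8 samples in groups of 2. Wild-type cells were mock treated or received IL-10 at 100 ng/ml for 4 h, and cells of Ptpn1-/- mice, which lack the tyrosine phosphatase PTP1B, were treated in the same ways. The table holds 1 authors' mean per group and no value per sample. There was therefore no spread between replicates to set a difference against, no test was possible, and every difference below is a description of these group means. Sequencing depth is unknown. Whether the samples of a group came from separate mice is not stated in the labels. In such bulk RNA a change in the share of a cell type and a change in RNA per cell cannot be told apart.

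IL-10 is a cytokine that restrains inflammatory macrophages. It binds a receptor made of the chains IL-10RA and IL-10RB, whose kinases JAK1 and TYK2 phosphorylate the transcription factor STAT3. STAT3 then enters the nucleus and switches on target genes. Among them are Socs3, whose product blocks signalling by certain cytokine receptors, and Bcl3, a nuclear IkB protein that restrains NF-kB-driven transcription.

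Few genes were listed far from their mock level, and most of those were higher. With IL-10, 53 genes (0.465% of those compared) were at least 2-fold higher and 2 (0.0175%) were at least 2-fold lower. At a limit of 1.5-fold the counts were 176 higher (1.54%) and 47 lower (0.412%). The median log2 ratio was 0.00 with quartiles of -0.11 and 0.10, and 10387 genes (91.1%) lay within 1.25-fold of their mock signal. At the centre the distribution was even, with 5659 genes above 0, 5642 below and 99 with the same value in both columns. The asymmetry lay in the tail: 8 genes were at least 4-fold higher, and none was 4-fold lower. The gene lists below were chosen with earlier results of these data known, so their counts and medians describe the listed genes only. Each list count is to be read beside the share of all genes at the same limit. For lists of this size, a count of none lower is near that share.

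**Figure D1:**
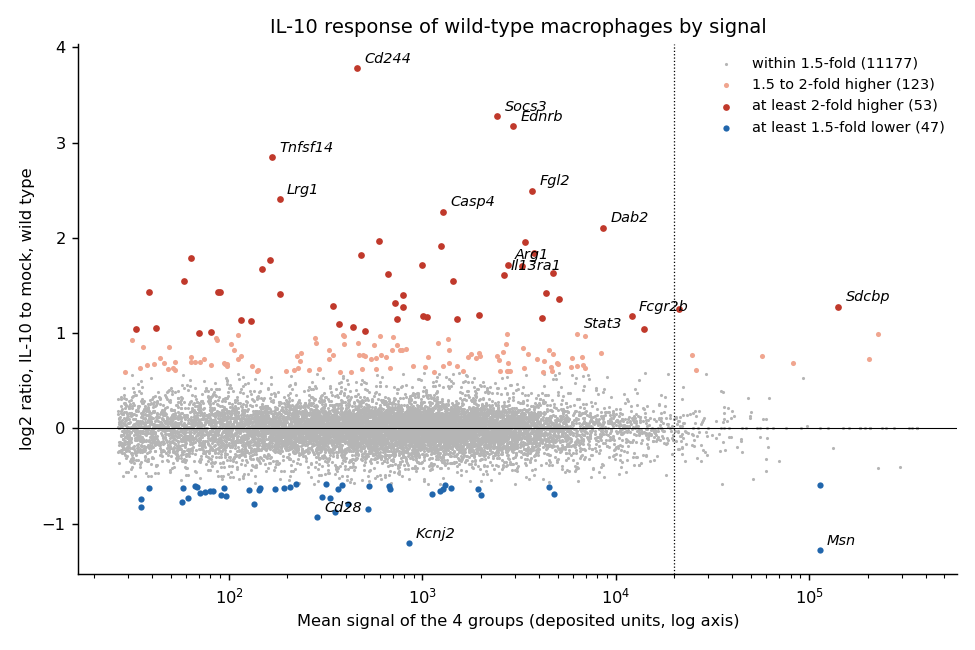
Each point is 1 gene, with its mean signal over the 4 columns on a log axis and its wild-type log2 ratio of IL-10 over mock on the other axis. The 11400 genes centre on 0, and the upper tail holds 53 genes past the 2-fold limit against 2 in the lower tail.

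The sequences before the start sites of 3 of the leading genes are shown because each holds the 9-base form TTCNNNGAA, the letters that STAT factors are known to bind. They are the 250 bases before the RefSeq start in build GRCm38.p6, written 5′ to 3′ along the gene's strand, with the match in capitals. Socs3 lies on the minus strand of chromosome 11 (chr11:117969367-117969616), Fgl2 on the plus strand of chromosome 5 (chr5:21372423-21372672) and Dab2 on the plus strand of chromosome 15 (chr15:6299539-6299788).
Socs3: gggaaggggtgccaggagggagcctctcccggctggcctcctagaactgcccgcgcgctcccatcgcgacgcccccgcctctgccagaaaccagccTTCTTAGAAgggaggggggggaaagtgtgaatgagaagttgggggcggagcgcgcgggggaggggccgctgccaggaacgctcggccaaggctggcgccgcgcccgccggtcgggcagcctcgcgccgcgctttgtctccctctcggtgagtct
Fgl2: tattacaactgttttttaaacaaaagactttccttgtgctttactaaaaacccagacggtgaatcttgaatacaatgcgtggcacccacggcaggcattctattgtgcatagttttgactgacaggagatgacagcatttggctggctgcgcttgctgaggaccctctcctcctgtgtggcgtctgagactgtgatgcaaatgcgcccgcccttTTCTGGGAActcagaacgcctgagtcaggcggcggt
Dab2: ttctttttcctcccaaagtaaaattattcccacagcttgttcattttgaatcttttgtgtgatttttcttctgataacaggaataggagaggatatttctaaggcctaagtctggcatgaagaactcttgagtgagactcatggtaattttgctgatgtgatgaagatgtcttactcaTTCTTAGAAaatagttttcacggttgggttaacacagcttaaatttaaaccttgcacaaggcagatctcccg

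The match begins 154 bases before the start in Socs3, 36 in Fgl2 and 72 in Dab2, and Socs3 and Dab2 share the same 9 letters. The form reads the same on both strands, and no other motif was searched. Of the 53 genes at least 2-fold higher, 44 had a RefSeq promoter, and 6 of these (13.6%) held the form in the 300 bases from 250 before to 50 after the start: Socs3, Fgl2, Dab2, Slc28a2, Gcnt2 and Sphk1. Among all compared genes with a promoter, 753 of 9167 (8.21%) held it, and 8.3% of all 32851 promoters did. Of the 47 genes at least 1.5-fold lower only 28 had a promoter, too few for a share, and 4 of these held it too. Nothing particular to the higher genes is therefore read from the form. A match describes these letters only, and binding was not measured.

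The receptor and its kinases were listed near their mock levels. Il10ra, the ligand-binding chain, was at 2061.5 units after mock treatment and 1865.5 with IL-10 (log2 ratio -0.14). Il10rb, the shared chain, went from 7245.5 to 7030 units (log2 ratio -0.04). Jak1 was listed at 12264 and 14579.5 units (0.25) and Tyk2 at 1536.5 and 1346.5 units (-0.19). Stat3, by contrast, was listed at 4330 units after mock treatment and 8651 with IL-10 (log2 ratio 0.99), just under the 2-fold limit. In Ptpn1-/- cells its log2 ratio was 1.20. Of the 12 receptor, JAK and STAT genes, Stat3 and Jak3 (652 and 1040.5 units, 0.65), the kinase of the common gamma chain, were the 2 at least 1.5-fold higher. None was 1.5-fold lower, beside 1.54% of all genes higher and 0.412% lower, and the median log2 ratio was 0.06. Il10 itself, at 6 and 19.5 units, was under the limit on low values.

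Among feedback inhibitors the difference was nearly that of 1 gene. Socs3 (ENSMUSG00000053113; mm9 chromosome 11, 117827393 to 117830500) was listed at 380.5 units after mock treatment and 3924.5 with IL-10 (log2 ratio 3.28), the second largest of all genes. Its values in Ptpn1-/- cells were 432 and 5021 units (3.46). Both IL-10 columns thus stood far above both mock columns. Socs2, known as a brake on growth hormone signalling, was listed at 59 and 118 units (0.76). It was the only other member of 17 at least 1.5-fold higher, beside 1.54% of all genes. Socs1, the inhibitor of interferon signalling, was at 54 and 56 units (0.04), and Cish at 28 and 35 (0.17). The phosphatase genes were listed between a log2 ratio of -0.11 for Ptpn11 and 0.44 for Ptpn1, which went from 4960.5 to 6736 units. The median of the 17 genes was 0.04.

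Transcription and mRNA-decay regulators known to be induced by IL-10 had a median log2 ratio of 0.16. Of 30 members, 6 were at least 1.5-fold higher and none lower, beside 1.54% and 0.412% of all genes. Bcl3 led them, at 825 units after mock treatment and 1862 with IL-10 (1.15). Batf, an AP-1 family factor, was at 232 and 450 units (0.88), and Tnip3, an inhibitor of NF-kB signalling, at 373 and 680 units (0.82). Nfil3, a bZIP repressor, was at 369.5 and 629.5 units (0.73). Sbno2 was at 3173 and 5196 units (0.71), and Zfp36 at 3824 and 5729.5 units (0.58), just under the 1.5-fold limit. Etv3, an ETS repressor, stayed closer to mock, at 1567.5 and 1652 units (0.07). Outside this list Tfec, a MiT family factor of macrophages, was at 340.5 and 943.5 units (1.40). Of 38 macrophage transcription factors, 3 were at least 1.5-fold higher, beside 1.54% of all genes, and the median was -0.02.

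The gene with the largest ratio was Cd244 (ENSMUSG00000004709; mm9 chromosome 1, 173489324 to 173515449), which encodes the SLAM family receptor 2B4. It was listed at 29 units after mock treatment and 739.5 with IL-10 (log2 ratio 3.78). In Ptpn1-/- cells it was listed at 51.5 and 1014 units (3.73). Its mock level was close to the 26.7 units added, so the size of the ratio rests on that number: the log2 ratio of Cd244 was 4.39 with 0.25 ppm added and 2.64 with 4 ppm. None of the other 8 SLAM genes and adaptors compared reached 1.5-fold, and the next largest was Slamf8, at 2333.5 and 3203.5 units (0.45).

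Ednrb (mm9 chromosome 14, 104213842 to 104243390), the endothelin B receptor, was listed at 426 units after mock treatment and 4058 with IL-10 (log2 ratio 3.17), and at 700 and 6577 units in Ptpn1-/- cells (3.18). It stood at the head of the G protein-coupled receptors, whose median was 0.01. Of 40 such receptors, 7 were at least 1.5-fold higher and 3 lower, beside 1.54% and 0.412% of all genes. Adora3, an adenosine receptor, was at 37 and 190 units (1.77), P2ry13, an ADP receptor, at 25.5 and 78.5 units (1.01), and Hrh2, a histamine receptor, at 22.5 and 72 units, just past the 2-fold limit. The lower receptors included P2ry1, another ADP receptor, at 281 and 178 units (-0.59). ADP receptors were thus listed on both sides of 0.

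**Figure D2:**
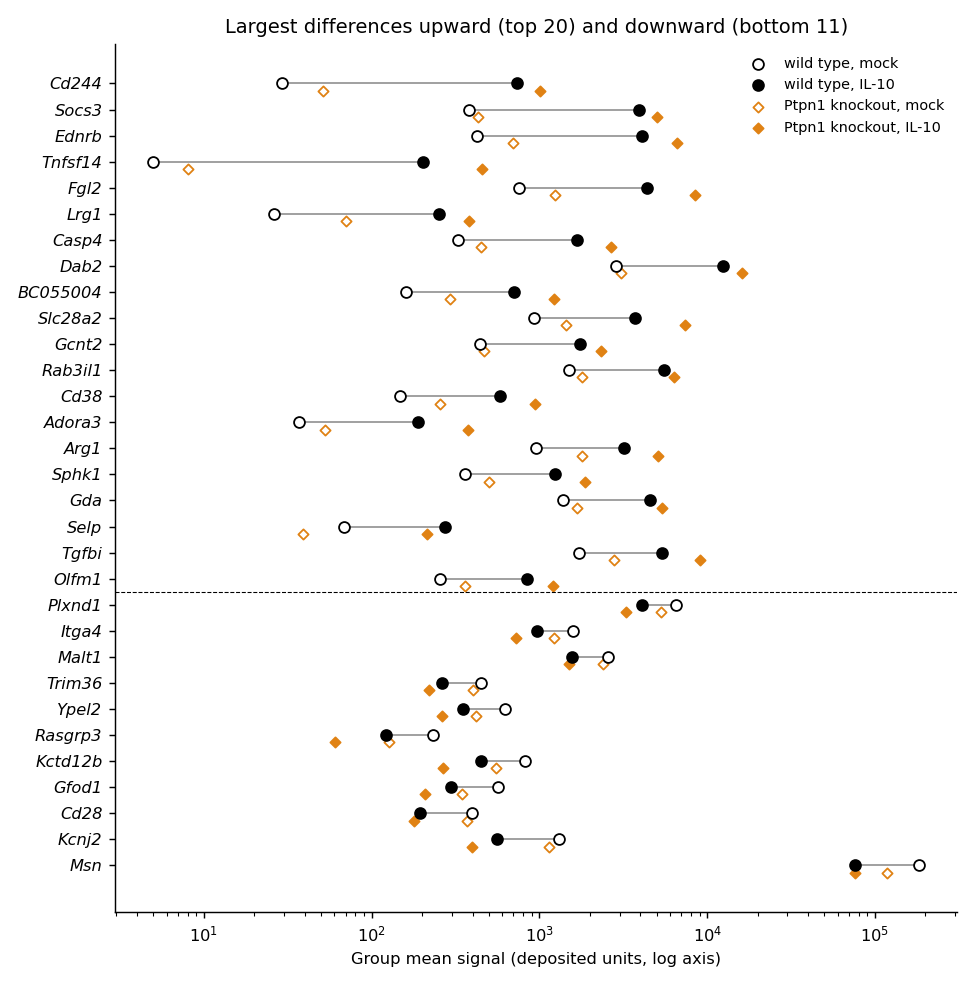
Among genes with at least 133.5 units in the higher wild-type group, the 20 with the largest upward and 11 of the 12 with the largest downward wild-type log2 ratio are plotted with their signal in wild type (circles) and in Ptpn1-/- cells (diamonds), open for mock and filled for IL-10, on a log axis. Cd244 moves from 29 to 739.5 units at the top, and Msn from 183406 to 75723 units at the other end.

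Receptor chains for other cytokines were among the higher genes, 3 of them at least 2-fold. Il13ra1, the IL-13 receptor chain, was listed at 1121 units after mock treatment and 3475.5 with IL-10 (1.61), and Il4ra, the chain that IL-4 and IL-13 share, at 2056.5 and 4637 units (1.16). Il21r, the IL-21 receptor, was at 136 and 322 units (1.10). Il15ra followed at 90 and 152 units (0.61). Those 4 were the members at least 1.5-fold higher of 32 compared, beside 1.54% of all genes. None was 1.5-fold lower, beside 0.412% of all genes, and the median of the list was 0.08. Arg1, the arginase known as a product of IL-4 and IL-13 signalling, was listed at 951 and 3187 units (1.72). Arg2, its mitochondrial relative, was at 23 and 107.5 units (1.43), again from a mock level under 1 ppm. The rest of arginine and polyamine metabolism, 15 of the 17 genes compared, stayed within 1.5-fold. Of 21 markers of alternative activation, Arg1, Il4ra and Socs2 were the 3 at least 1.5-fold higher, beside 1.54% of all genes. The median was 0.18.

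Ligands and receptors of the TNF family had a median of 0.18. Of 19 members, 5 were at least 1.5-fold higher and none lower, beside 1.54% and 0.412% of all genes. Tnfsf14 (mm9 chromosome 17, 57328915 to 57333612), which encodes LIGHT, was listed at 5 units after mock treatment and 201.5 with IL-10. The log2 ratio of Tnfsf14 was 2.85, or 4.16 with 0.25 ppm added and 1.46 with 4 ppm. In Ptpn1-/- cells it was listed at 8 and 453.5 units. Tnfsf14 passed the limit on low values only through the IL-10 columns, so its place among the 5 was in part built in. Cd40 was at 118 and 224.5 units (0.80), the TNF receptor Tnfrsf1a at 3650 and 5873 units (0.68) and Tnfrsf26, a decoy-type receptor, at 1300.5 and 2181.5 units (0.73). Tnf itself, a cytokine that IL-10 is known to restrain in activated macrophages, was listed at 350.5 and 438 units (0.30) in these cells, which received no inflammatory stimulus by the labels beyond the elicitation.

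Of the 40 lists the Fc receptors lay highest, with a median log2 ratio of 0.57 over 8 genes, beside 0.00 over all genes. Fcgr2b, the inhibitory IgG receptor, was listed at 5784 units after mock treatment and 13145 with IL-10 (1.18), and Fcgr1, the high-affinity IgG receptor, at 1453 and 2547 units (0.80). Fcgr3 was at 10587.5 and 15827 units (0.58), just under the 1.5-fold limit. Inhibitory and activating members were both among them. The 28 other paired and inhibitory myeloid receptors held none past 1.5-fold. Their median was 0.05. Among C-type lectins 2 of 20 were at least 1.5-fold higher, beside 1.54% of all genes. These were Cd209a, at 6 and 61.5 units (1.43), and Clec2d, at 1595 and 2729.5 units (0.77). Cd209a passed the limit on low values only through the IL-10 columns, so its place in that count was in part built in.

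Dab2 (mm9 chromosome 15, 6249788 to 6390712), a clathrin adaptor used in endocytosis, was listed at 2865 units after mock treatment and 12436 with IL-10 (2.11). In Ptpn1-/- cells it was listed at 3079 and 16014.5 units (2.37). The scavenger receptor Msr1 was at 4313 and 7279 units (0.75), and Cd36, a receptor for oxidized lipids, was listed lower, at 137379 and 91114 units (-0.59). At that height neighbouring ranks of the normalized table lie far apart, and Cd36 held the same 2 values in Ptpn1-/- cells. Fgl2 (mm9 chromosome 5, 20878460 to 20884192), a fibrinogen-like protein that is secreted and binds Fc gamma receptors, was at 753 and 4362.5 units (2.49). Lrg1, a secreted acute-phase glycoprotein, was at 26 and 253 units (2.41), and the hemoglobin-binding Hp at 169.5 and 339.5 units (0.90). Of 19 acute-phase and secreted defence genes as listed, Fgl2, Lrg1, Hp and Gda were the 4 at least 1.5-fold higher, beside 1.54% of all genes. Gda, guanine deaminase, is an enzyme of purine metabolism and not a secreted defence protein. The median of the list was 0.21.

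Of 30 inflammasome and cell death genes, 6 were at least 1.5-fold higher and 1 was at least 1.5-fold lower, beside 1.54% and 0.412% of all genes. In all, 17 were above 0 and 12 below. Casp4, which encodes caspase-11, the sensor of cytosolic lipopolysaccharide, was at 326 units after mock treatment and 1680.5 with IL-10 (2.28). Mefv, which encodes pyrin, was at 129 and 351.5 units (1.28), Zbp1, a nucleic acid sensor, at 170 and 373 units (1.02), and Casp1 at 1504 and 2795 units (0.88). Il1b went from 9.5 to 48 units and stayed among the low genes. It passed the limit on low values only through the IL-10 columns, so its place in list counts was in part built in. Naip1, a sensor of bacterial proteins, was the member at least 1.5-fold lower, at 294 and 183 units (-0.61). The median of the list was 0.07. Of 40 Toll-like receptor and NF-kB genes only the adaptor gene Myd88 was 1.5-fold higher, at 1270 and 2164 units (0.76), near the share of all genes. Among 21 inflammatory cytokines and effector enzymes Il1b and Ptgs1 (822 and 1297.5 units, 0.64), cyclooxygenase-1, were, beside 1.54% of all genes.

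Chemokine receptors split by gene. Ccr1, a receptor for CCL3 and CCL5, was listed at 2275.5 units after mock treatment and 5871 with IL-10 (1.36). Ccr2, the receptor for CCL2, was at 370.5 and 639 units (0.74). Cx3cr1, the fractalkine receptor, was listed lower, at 219 and 131 units (-0.64). Of 20 chemokines, Ccl4 was at 206.5 and 462 units (1.07), Ccl9 at 3756.5 and 7409.5 units (0.97) and Ccl6 at 17324 and 29486 units (0.77), while the neutrophil attractant Cxcl5 was lower, at 169 and 100 units (-0.63). The closely related CC chemokine and receptor genes may share reads, which the sources used here do not settle.

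Interferon-linked genes were listed mostly above 0, by small amounts. Of 37 type I interferon-stimulated genes 31 were above 0, against 5659 of 11400 genes in all, with a median of 0.18, but only Zbp1 and Trim30a (1738.5 and 2645.5 units, 0.60) reached 1.5-fold. The antiviral gene Rsad2 was at 622 and 423 units (-0.53). Interferon-gamma-inducible GTPases and factors had a median of 0.34 over 20 genes, and 5 reached 1.5-fold, beside 1.54% of all genes. Gbp3, a guanylate-binding protein, led them at 164 and 346 units (0.97). The same 2 lists had medians of 0.47 and 0.96 in Ptpn1-/- cells. Whether the genotypes differed was not tested. In antigen presentation, Nlrc5, the class I transactivator, was at 389 and 784 units (0.96), Cd274, which encodes PD-L1, at 3006.5 and 5193.5 units (0.78), and March1, a ubiquitin ligase that removes class II molecules from the surface, at 745 and 1450 units (0.94). Psmb9 stood on 2 rows of the table, at 50.5 and 141.5 units and at 383 and 404 units, so its ratio is uncertain.

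**Figure D3:**
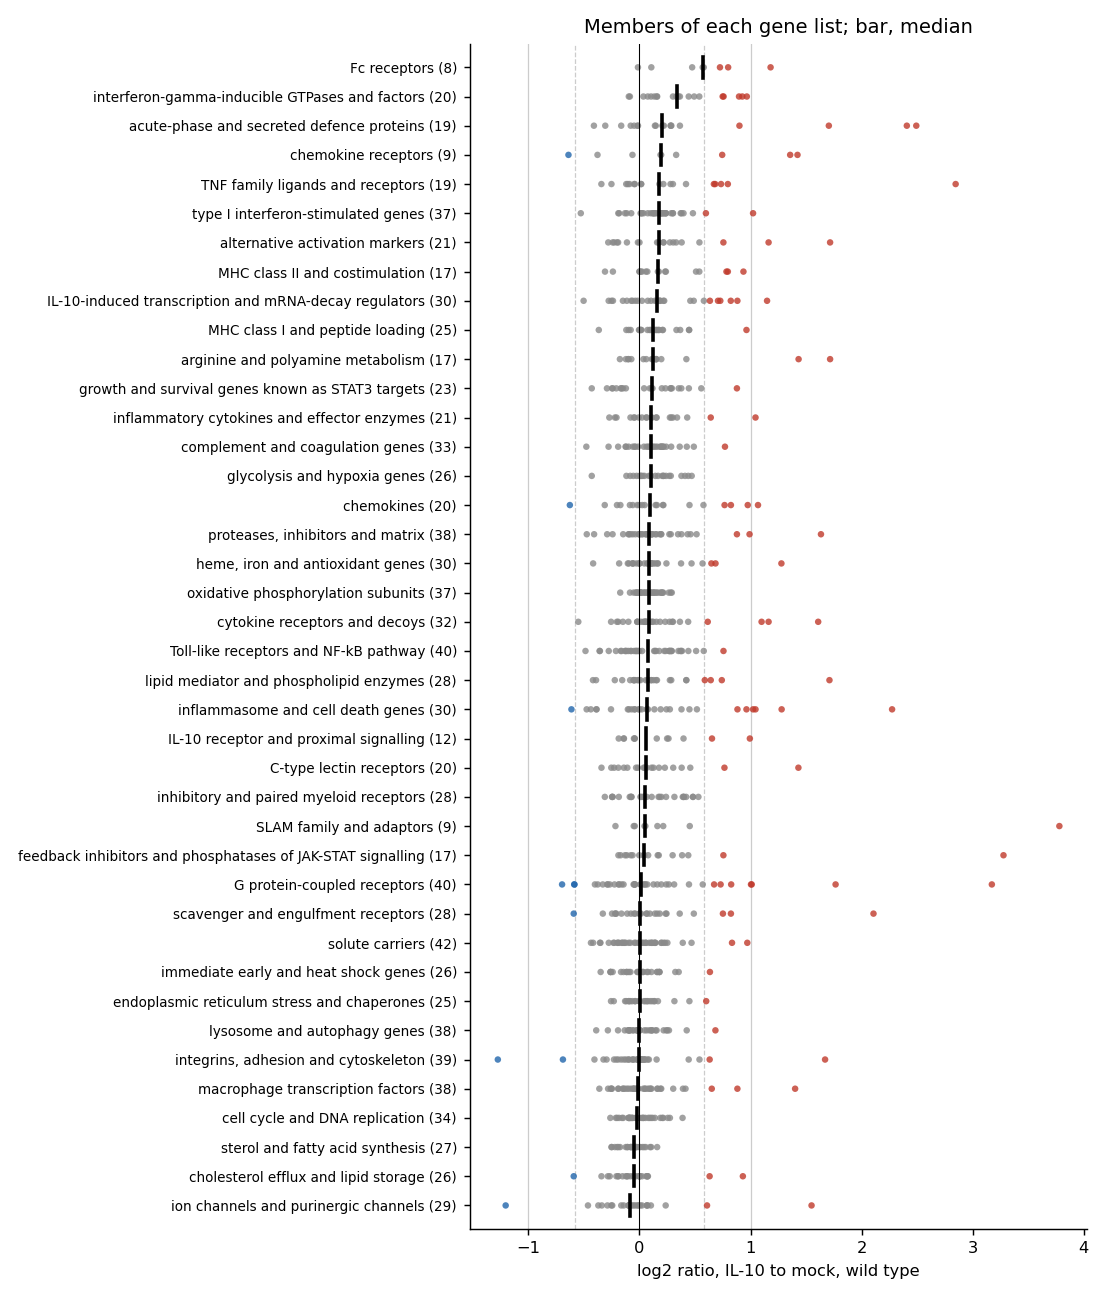
For each gene list the wild-type log2 ratio of IL-10 over mock is plotted for every compared member as a point, with a bar at the list's median. The Fc receptor median of 0.57 lies farthest from 0, and the lists of sterol synthesis, glycolysis, oxidative phosphorylation and cell cycle hold no gene past 1.5-fold.

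Enzymes, channels and matrix genes contributed single large ratios. Sphk1, the kinase that makes sphingosine-1-phosphate, was listed at 360.5 units after mock treatment and 1241 with IL-10 (1.71), and Gcnt2, a glycosyltransferase that branches cell-surface glycans, at 443 and 1747 units (1.92). Kcnk13, a potassium leak channel, was at 566 and 1708.5 units (1.55). In the opposite direction stood Kcnj2 (mm9 chromosome 11, 110927478 to 110938135), the inward rectifier potassium channel Kir2.1, at 1313.5 and 554.5 units (-1.21), and at 1132 and 394 units in Ptpn1-/- cells (-1.46). It was the only gene under 20000 units at least 2-fold lower. The 29 ion channel genes had a median of -0.08. Tgfbi, a matrix protein, was at 1712 and 5371.5 units (1.63), Selp, which encodes P-selectin, at 68 and 275 units (1.67), and the metallothionein gene Mt2 at 403 and 1015.5 units (1.28). Spp1, which encodes osteopontin, was listed at 137379 and 273131 units (0.99), in the range where ranks lie far apart.

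Lists of metabolism and cell division held no gene past 1.5-fold, which for lists of this size is near the share over all genes (1.54% higher and 0.412% lower). None of the 27 sterol and fatty acid synthesis genes, 26 glycolysis and hypoxia genes, 37 oxidative phosphorylation genes and 34 cell cycle genes was 1.5-fold higher or lower. Their medians were -0.05, 0.10, 0.08 and -0.02 in that order. Solute carriers gave Slc16a1, a lactate transporter, at 392.5 and 795 units (0.97), and Slc39a14, a zinc and iron importer, at 538 and 979.5 units (0.83), as the 2 of 42 past 1.5-fold. Among genes known as STAT3 targets of growth and survival, Timp1, an inhibitor of matrix proteases, at 420 and 794 units (0.88), was the 1 of 23.

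The 2 genes at least 2-fold lower were Msn and Kcnj2. Msn, which encodes moesin, a linker of membrane and actin, was listed at 183406 units after mock treatment and 75723 with IL-10 (-1.28). Sdcbp, which encodes syntenin, held exactly those 2 values in the other order, a log2 ratio of 1.28. Both lie above 20000 units, where 32 of 146 genes had the same value in both columns and a few ranks make a large step. The call for Msn therefore rests on that part of the scale. Without those genes 1 gene at least 2-fold lower was left, and with 0.25 ppm added in place of 1 ppm there were 6.

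Among the other lower genes, Cd28, a costimulatory receptor best known from T cells, was listed at 395 and 194 units (-0.93), and at 369.5 and 179 units in Ptpn1-/- cells (-0.95). Rasgrp3, an exchange factor for Ras, was at 230.5 and 121.5 units (-0.80). Malt1, a paracaspase of the NF-kB pathway, was at 2570 and 1571.5 units (-0.70). Bcl10, an adaptor that binds MALT1, named after its values were seen, stayed at 1033.5 and 1018.5 units (-0.02). Itga4, the alpha-4 integrin, was at 1584 and 972 units (-0.69), and Plxnd1, a semaphorin receptor, at 6540.5 and 4057.5 units (-0.69). Hes1, a repressor downstream of Notch, named after its values were seen, was at 80 and 36 units (-0.77).

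The mock level of the higher genes varied widely. Of the 53 genes at least 2-fold higher, 10 had a mock signal under 1 ppm, which is 8.7% of the 115 compared genes that low. These passed the limit on low values through other columns, so a high ratio was in part built into their being compared, and nothing is read from the share. The same holds for counts of gene lists that include them. The 10 genes were Tnfsf14, Lrg1, Lck, Nrg1, Arg2, Cd209a, Tarm1, Il1b, P2ry13 and Hrh2, with 4 to 26 units after mock treatment and 37 to 253 with IL-10. Their ratios rest on the units added. The log2 ratio of Lrg1 was 2.99 with 0.25 ppm added and 1.44 with 4 ppm, the log2 ratio of Arg2 was 1.94 and 0.72, and the log2 ratio of Cd209a was 2.43 and 0.58. At the other end, 11 genes had a mock signal of at least 50 ppm, 0.313% of 3518, among them Dab2, Rab3il1, Gda, Tgfbi, Ccr1, Sdcbp, Plek, Fcgr2b, Il4ra and Ms4a6d. Plek, which encodes pleckstrin, was listed at 12599 and 29969 units (1.25), and Rab3il1, an exchange factor for Rab3 GTPases, at 1509.5 and 5489.5 units (1.84).

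The same genes were listed higher in the second genotype, whose columns share none with the wild type, though all columns share the authors' normalization. Ptpn1 itself was listed at 3837 and 5392 units in the columns labelled Ptpn1-/-, so its signal was lower there but not absent, and the deleted part of the gene is not given in the labels. Of the 53 genes at least 2-fold higher in wild type, 49 were so in Ptpn1-/- cells, where 100 genes (0.877%) were at least 2-fold higher. The 4 that were not, Sdcbp, 0610040J01Rik, Ms4a6d and Hrh2, had log2 ratios there between 0.59 and 0.99. At 1.5-fold, 151 genes were shared, 85.8% of the wild-type genes and 57.2% of the 264 in Ptpn1-/- cells (2.32%), where 92 (0.807%) were lower. Of the 176 wild-type genes, 172 were above 0 in the other genotype, and of the 47 lower genes 46 were below 0. The exception was Inpp5j, an inositol phosphatase gene named after its values were seen, which the wild-type columns list at 85 and 43 units and the Ptpn1-/- columns at 74 and 81.5 units.

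Genes listed higher often lay beside one another. Of the 53 genes at least 2-fold higher, 18 (34.0%) had another gene at least 1.5-fold higher whose start lay within 100 kb, beside 424 of all 11400 genes (3.72%). For the 176 genes the share was 41 (23.3%). None of the 47 lower genes had a lower neighbour, beside 88 of all genes (0.772%). Il4ra and Il21r form such a pair, with starts 51147 bases apart within 132695796 to 132777084 of mm9 chromosome 7. Further pairs were Casp1 and Casp4, 10343 bases apart, Lrg1 and Sema6b, a semaphorin gene (367 and 954 units, 1.32), 18397 bases apart, and Mt1 and Mt2, 6593 bases apart. Beside Socs3, Tha1, a threonine aldolase gene named after its values were seen, was listed at 159 and 332.5 units (0.95), with its start 95727 bases away, while Birc5, 119.9 kb away, was at 98.5 and 83.5 units (-0.18). Gbp2, Gbp3, Gbp5 and Gbp7 made 1 group, and Ccl4, Ccl6 and Ccl9 another. No pair had overlapping rows, but several are close relatives that may share reads, and reads that run past 1 gene's end were not looked at.

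**Figure D4:**
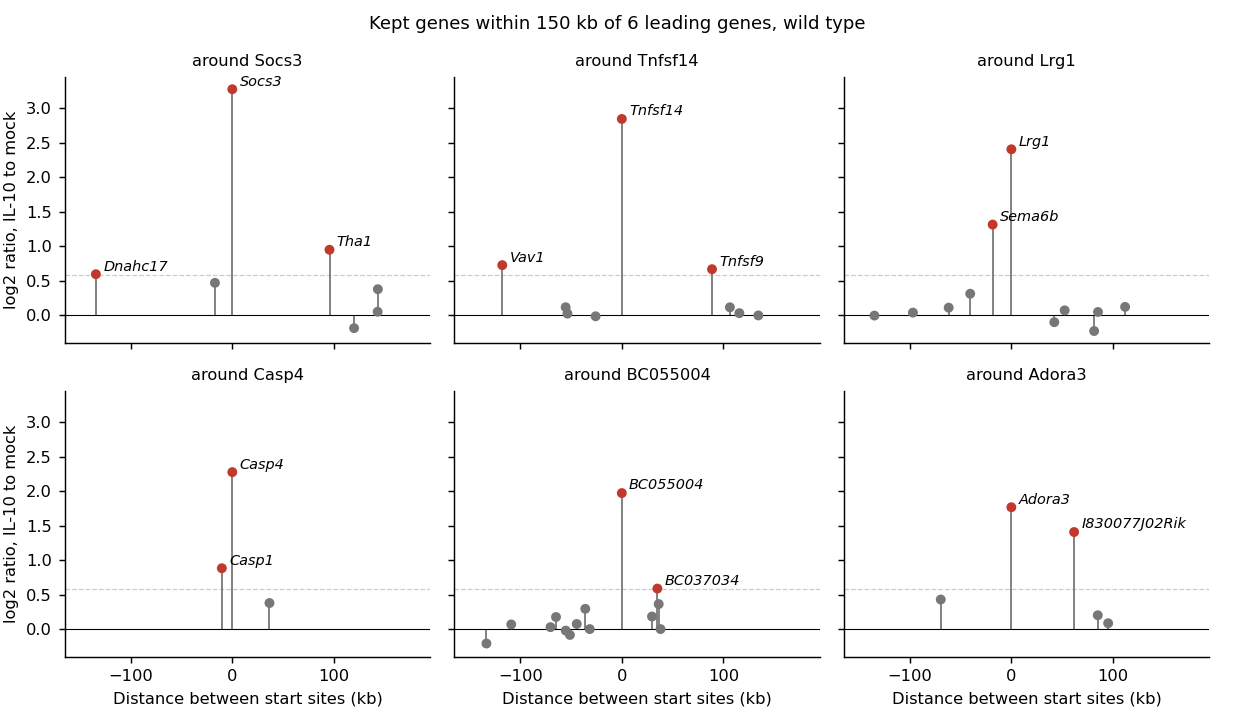
Around each of 6 leading genes the wild-type log2 ratios of the compared genes are plotted against the distance between start sites. Distances are in kb of mm9, with positive values downstream along the leading gene's strand. Sema6b at 1.32 beside Lrg1 and Casp1 at 0.88 beside Casp4 stand above their surroundings, while C3 beside Tnfsf14 lies at -0.01.

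Across genes the log2 ratio went with transcript length. Spearman's rho was -0.36 over the 11222 genes with a length, as a description across genes that are not independent. The median log2 ratio was 0.08 for transcripts under 1000 bases and -0.07 for those of 4000 bases or more. Of the 47 lower genes 32 had transcripts of at least 4000 bases, beside 4400 of the 11222 genes, and of the genes at least 2-fold higher 13 had. With the trend over length subtracted, 30 genes were at least 1.5-fold lower and 172 at least 1.5-fold higher, and 27 and 162 of these were the same genes as before. The part of length in the differences was not tested.

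**Figure D5:**
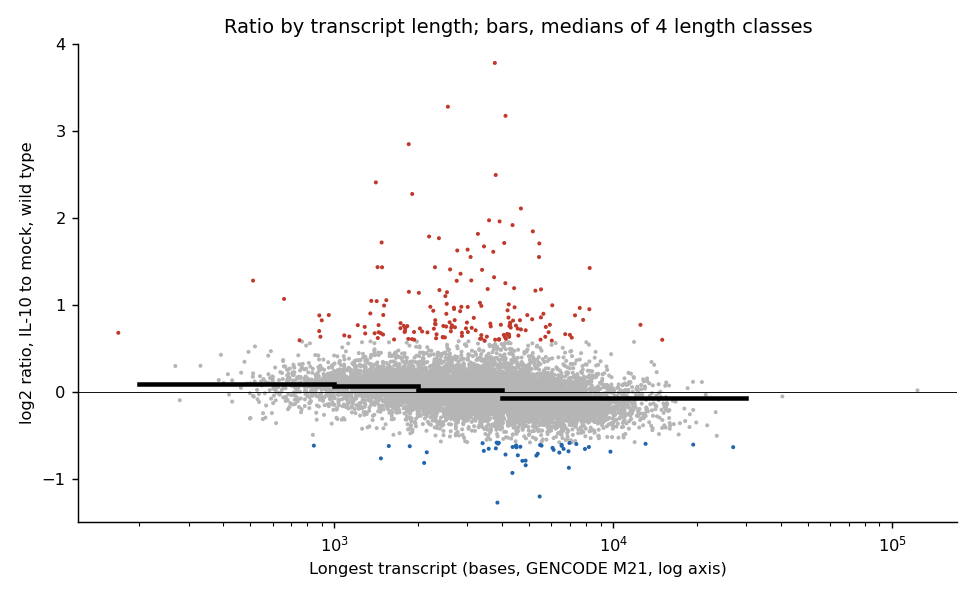
The wild-type log2 ratio of each gene is plotted against the length of its longest annotated transcript, in bases on a log axis, with bars at the medians of 4 length classes. The cloud tilts downward, from a median of 0.08 under 1000 bases to -0.07 at 4000 bases or more.

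Markers of macrophages were all listed, and those of lymphocytes were largely missing from the table. The 10 macrophage markers, among them Emr1 (10888.5 and 10969 units, 0.01) and Csf1r (16138 and 14130 units, -0.19), summed to 650720.5 units after mock treatment and 561418 with IL-10, a sum set mainly by Lyz2 and Cd68, which stand near the capped top of the scale. The 6 monocyte markers summed to 1372 and 2111.5 units, and 3 of them, Ccr2 and F13a1 included, were at least 1.5-fold higher, beside 1.54% of all genes. Ly6c2 (15 and 13.5 units) and Plac8 (10 and 14 units) were listed under 1 ppm in both wild-type groups. The 3 higher monocyte markers were listed higher alongside Ccr1 and Fcgr1, and their part in the result was not tested. No NK cell marker of 7 was listed, nor Cd3d, Cd3e, Cd3g, Cd4, Cd8a and Trac of the 12 T cell markers, although Lck was listed at 11.5 and 105 units (1.79) and Il7r, another of them, at 32926 and 34645.5 units (0.07). Dendritic cell markers summed to 125 and 175 units, with Flt3, Xcr1, Clec9a and Siglech not listed, and Zbtb46 was at 101 and 84 units beside Cd209a. Of the B cell markers, which summed to 122 and 166.5 units, Pax5 was not listed. Neutrophil markers summed to 3145 and 3453 units, mast cell markers to 330 and 360.5 units, and mesothelial and fibroblast markers to 33986 and 32643 units.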

How the data were processed

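RNA of 8 samples was sequenced, 2 in each of 4 groups. The authors deposited 1 normalized signal value per gene and group, which the labels call CPM. Each column sums to 26705598 and all share the same highest value, 362618, so the values were treated as a signal on a common scale. RSEM, Bowtie and mm9 are named per the submitters' processing notes. What each did, the annotation and the normalization were not given in the sources used here. A common scale removes depth and any shift shared by most genes, and it caps the top genes. Coordinates are those of the deposited table, whose rows need not span whole genes.

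The log2 ratio of IL-10 over mock was computed with 26.7 units (1 ppm) added, over 11400 genes. The planned limma fit needs values per library and was not run; limits of 2-fold and 1.5-fold stand in for a test. The ratio step was run on simulated data with 4-fold changes, equally up and down, in genes well above the limit on low values. That simulation does not measure the error of the calls here, many of which are smaller or on low genes. For the 38 names found on several rows, lists took the row of greatest mean signal. Named genes were the 20 largest ratios upward and 12 downward whose higher wild-type value reached 5 ppm (133.5 units), up to 4 members of each of 40 lists with the largest ratios, all members of the receptor and feedback lists, and members of counts of 5 or fewer. Others named, including those given to complete a list or a marker set, were chosen after their values were seen. The members, lists and 12 marker lists were chosen with earlier results of these data known. Transcript lengths came from GENCODE M21 and promoters from RefSeq on GRCm38.p6, matched by name or identifier only. Python 3.11.15, pandas 2.3.3, NumPy 2.4.6, SciPy 1.17.1, statsmodels 0.14.6 and matplotlib 3.10.9 were used. The alternatives were other pseudocounts, filters and trend corrections. Some items are not reported here.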

Additional observations from a re-analysis of the deposited data

How the results depend on the processing

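All calls are limits on ratios of group means, so no alternative measures their error. The count of genes at least 2-fold higher ran from 37 with 4 ppm added to 68 with 0.25 ppm. Genes at least 2-fold lower numbered 6 with 0.25 ppm added and 1 without genes above 20000 units. Genes at least 1.5-fold higher numbered 117 with 4 ppm added. Genes at least 1.5-fold lower numbered 84 with 0.25 ppm added, 16 with 4 ppm, 31 with a filter at 5 ppm and 30 with the trend over transcript length subtracted. Each of these settings but the last changes, by construction, which genes are compared or how strongly low genes are damped, and the cause of the last was not tested. The other 25 counts, over these alternatives and those without a filter, with a filter on the wild-type columns alone and with the trend over mean signal subtracted, stayed within 1.5 times. No named gene past 1.5-fold changed sign. Ratios of named genes moved by more than 1.25-fold in 28 values, all under another pseudocount and all for genes with a mock signal of 5 to 160 units, such as Tnfsf14 and BC055004. The median of the Fc receptors was 0.47 with 4 ppm added, that of the interferon-gamma-inducible genes 0.21 with 4 ppm, and that of the chemokine receptors 0.47 with a filter at 5 ppm. No list median was past 1.5-fold, and medians near 0 took either sign: with the trend over transcript length subtracted, that of the cell cycle genes was 0.01 and that of the macrophage transcription factors 0.00. No paired analysis was possible because the table holds 1 value per group. Leaving out each replicate, the replicate block and the limma fit were not run for the same reason. Depth is unknown and limits on low genes cannot be given.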

Other observations

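Families grouped only after their values were seen held further large ratios in wild-type macrophages. High counts were therefore in part built into the grouping, and nothing is read from them. Genes of purine transport, metabolism and sensing had a median log2 ratio of 0.09 beside 0.00 over all genes. Of 32 compared members, 7 were at least 1.5-fold higher and 1 lower, beside 1.54% and 0.412% of all genes. Slc28a2, a concentrative nucleoside transporter, was listed at 933 units after mock treatment and 3704 with IL-10 (1.96). Gda, guanine deaminase, was at 1384.5 and 4575.5 units (1.71), and Cd38, an ectoenzyme that consumes NAD, at 146.5 and 583 units (1.82). Pnp, purine nucleoside phosphorylase, was at 2739 and 4141 units (0.59). P2ry14, a receptor for UDP-glucose, was counted too although that ligand is not a purine, at 387.5 and 707.5 units (0.83). The nucleoside transporters Slc29a1 (2169 and 1894.5 units) and Slc29a3 (11891 and 9312.5 units) were listed lower by less than 1.5-fold.

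Src family kinases and exchange factors of small GTPases were listed in both directions, with a median of -0.09. Of 37 members, 6 were at least 1.5-fold higher and 2 lower, beside 1.54% and 0.412% of all genes. Fgr, a myeloid Src family kinase, was at 1644 and 3285 units (0.99), Vav1, an exchange factor for Rac, at 2792 and 4644.5 units (0.73), Tiam1 at 374.5 and 711 units (0.88) and Ralgds, an exchange factor for Ral, at 1113.5 and 2576.5 units (1.19). Arap3, which encodes a GTPase-activating protein and not an exchange factor, was lower, at 124.5 and 65.5 units (-0.71). Among 22 semaphorins, plexins and neuropilins, Sema6b and Nrp2 (5390.5 and 8544 units, 0.66) were at least 1.5-fold higher, beside 1.54% of all genes. Plxnd1 and Sema4d (5613 and 3648 units, -0.62) were at least 1.5-fold lower, beside 0.412% of all genes.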
